A study of Mus musculus with 12 samples.

Results

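The EGF family ligands and their ErbB receptors were followed across mouse mammospheres, the spheres that mammary cells form when grown in suspension. The 10 genes were taken by name from a deposited table of 23406 genes. They comprise 7 ligand genes (Ereg, Areg, Hbegf, Tgfa, Btc, Egf and Epgn) and 3 receptor genes (Egfr, Erbb2 and Erbb3). Total RNA was sequenced from passage 2 mammospheres in 12 libraries, 3 for each of 4 groups. All mice were C57BL/6J. The groups were wild type (WT) at 2 months and at 12 months, and Shc1p66 knock-out (p66-/-, here KO) at 2 months and at 12 months, and no library carried a further allele or treatment that the labels name. The labels do not give the culture medium, nor which animal each library came from, so p-values here measure the spread between libraries, which may be technical.

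EGF family ligands are made as precursors anchored in the cell membrane, and metalloproteases release them from the cell surface. A ligand that binds EGFR, the product of Egfr, pairs it with another ErbB protein and turns on its kinase, which starts the Ras-ERK and PI3K pathways. ErbB2, the product of Erbb2, has no known ligand of its own and serves as a partner in such pairs, while ErbB3 binds neuregulins and has a weak kinase. Proteins of the Shc1 gene are adaptors that bind activated ErbB receptors, and p66Shc is the longest of them. In the mouse mammary gland, amphiregulin, the product of Areg, is known as the ligand that oestrogen uses to drive growth of the ducts.

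Values are deposited read counts scaled to library size in edgeR (CPM), and libraries held 31845169 to 109079737 reads in genes. Log2 fold changes are from a limma fit of log2(CPM + 0.5) to all 12 libraries and 13961 genes, with the standard error (SE) and a p-value adjusted over all those genes by Benjamini-Hochberg (BH). A gene was called changed at an adjusted p under 0.05. All 10 genes reached the mean of 0.5 CPM required for the fit. Egf did so barely, with a mean of 0.503 CPM and through its level in 12-month KO, and Epgn through its level in 12-month WT. Shc1, whose reads are summed over isoforms, had 295.7 ± 25.3 CPM in 2-month WT, 210.6 ± 8.44 CPM in 12-month WT, 208.3 ± 0.329 CPM in 2-month KO and 169.9 ± 7.6 CPM in 12-month KO (mean ± SD, n = 3), and was lower in KO at 2 months (-0.50 ± 0.06, BH-adjusted p = 0.000133) and at 12 months (-0.31 ± 0.06, BH-adjusted p = 0.000593). Luminal epithelial, fibroblast and endothelial markers were all found in every group. The summed level of 10 luminal markers was 4056 to 4184 CPM in 12-month WT libraries and 356 to 567 CPM in the others, below the 7041 to 11647 CPM of 7 fibroblast markers in every library. The 8 basal markers summed to 51.2 to 230 CPM, and the group means of the defining basal genes Krt5 and Trp63 were under 1 CPM at 2 months in both genotypes.

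Ereg, which encodes epiregulin, was high in 1 group. It had 7.73, 7.67 and 8.25 CPM in the 2-month WT libraries, 8.78, 9.35 and 7.30 CPM in 12-month WT, 12.4, 11.6 and 12.9 CPM in 2-month KO, and 140.4, 123 and 169 CPM in 12-month KO. Every 12-month KO library was far above every other library, and the WT libraries of the 2 ages overlapped. With age, Ereg rose in KO by a log2 fold change of 3.49 ± 0.11 (BH-adjusted p = 3.42e-11), whereas WT moved by 0.09 ± 0.11 (BH-adjusted p = 0.496). KO exceeded WT at 12 months by 4.0 ± 0.11 (BH-adjusted p = 1.12e-11), which was rank 2 from the highest of the 13961 genes. KO was also higher at 2 months, by 0.61 ± 0.11 (BH-adjusted p = 0.00236). The age effect in KO exceeded that in WT by 3.40 ± 0.16 (BH-adjusted p = 1.69e-09). In order of level, 2-month WT and 12-month WT did not differ by the test, followed by 2-month KO and then 12-month KO. Ereg lies on chromosome 5 of mm10 at 91074616 to 91093649 on the plus strand, where GENCODE places the antisense gene Gm19610 across it. Whether counting used strand is not given in the sources used here, so reads of Ereg and Gm19610 cannot be told apart.

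Several marker sums of other cell types also stood apart in the 12-month KO libraries. The summed level of 5 endothelial markers (Pecam1, Cdh5, Kdr, Tek and Emcn) was 243 to 259 CPM in 12-month KO and 62.6 to 114 CPM elsewhere, and all 5 rose with age in KO. The summed level of 5 mast cell markers was 147 to 173 CPM in 12-month KO, 26.8 to 28.2 CPM in 2-month KO, 35.2 to 43.8 CPM in 12-month WT and 111 to 126 CPM in 2-month WT. The skeletal muscle sum of 804 to 1511 CPM in 12-month KO overlapped the 868 to 1020 CPM of 2-month WT, against 172 to 297 CPM in the other groups. Most of it was Ttn, with a mean of 1045.9 CPM in 12-month KO. With age in KO 4 of the 6 muscle markers rose and 1 fell, and Ckm went from 5.44 to 2.2 CPM. The adipocyte sum was 303 to 312 CPM in 12-month KO against 128 to 182 CPM. It was nearly all Fabp4, with a mean of 305.9 CPM in 12-month KO. The group means of Adipoq, Plin1, Cidec and Lep were under 1 CPM throughout, and Adipoq went from 0.545 to 0.182 CPM with age in KO. The leukocyte sum was lowest in 12-month KO, at 254 to 448 CPM against 744 to 1262 CPM in the other groups, with the T cell marker Cd3e at 0 in every library outside 12-month KO. None of the endothelial or mast cell markers was at 0 throughout a group. The part of these cells in the Ereg result was not tested. In such bulk samples, fewer cells of a type and less RNA per cell cannot be told apart.

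**Figure D1:**
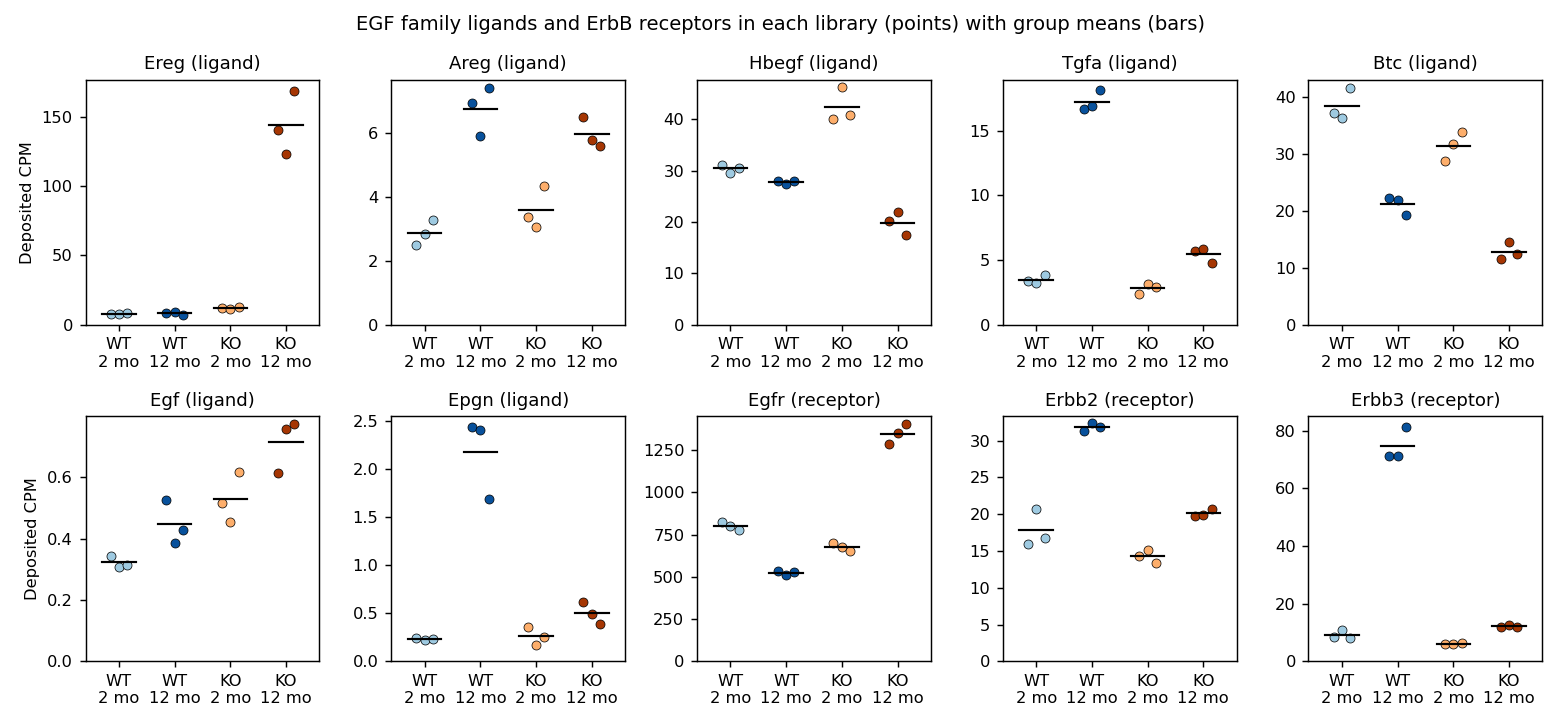
Deposited CPM of the 7 ligand and 3 receptor genes, with 1 point for each of the 12 libraries, a bar at each group mean and a linear axis from 0 in every panel. Ereg, Egfr and Egf were highest in 12-month KO, while Tgfa, Epgn, Erbb2 and Erbb3 were highest in 12-month WT.

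Egfr, the receptor that epiregulin binds, also had its highest level in 12-month KO. Its levels were 824, 803 and 776 CPM in 2-month WT, 536, 511 and 528 CPM in 12-month WT, 703, 677 and 654 CPM in 2-month KO, and 1286, 1352 and 1404 CPM in 12-month KO. The 4 groups did not overlap. The direction of its age change was opposite in the 2 genotypes. Egfr fell with age in WT by 0.61 on the log2 scale (SE 0.05, BH-adjusted p = 2.48e-07) and rose in KO by 0.99 ± 0.05 (BH-adjusted p = 2.33e-09), an interaction of 1.60 ± 0.07 (BH-adjusted p = 1.39e-09). At 12 months KO exceeded WT by 1.36 ± 0.05 (BH-adjusted p = 9.88e-11). At 2 months it was lower in KO, with a log2 difference of -0.24 ± 0.05 (BH-adjusted p = 0.00614), a call that was lost with scaling factors recomputed over all 12 libraries (-0.15, BH-adjusted p = 0.071), with quantile scaling (-0.14, BH-adjusted p = 0.111) and in edgeR (-0.14, BH-adjusted p = 0.132). Egfr lies on chromosome 11 at 16752202 to 16913907 on the plus strand, and the antisense gene Egfros overlaps it.

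The genes most like Egfr over the 12 libraries were Vldlr (Pearson r = 0.998), Reck (0.995) and Pdgfra (0.994), out of 3941 genes whose group means spanned at least 1 log2. Pdgfra, a receptor gene of fibroblasts and on the fibroblast marker list, had 604.5 and 389.8 CPM in WT at 2 and 12 months, and 524.5 and 951 CPM in KO. Of the other fibroblast markers, Dcn had 3340 and 1679 CPM in WT and 2525 and 4137 CPM in KO at those ages. Pdgfrb had 567.9 and 442 CPM in WT and 562.7 and 707.6 CPM in KO. The group means of both were in the order of Egfr, but the 2-month libraries of Pdgfrb overlapped between genotypes. All 7 fibroblast markers fell with age in WT, and in KO 3 rose and 4 (Col1a1, Col1a2, Col3a1 and Lum) fell. Their summed level followed another order, with 10716 to 11647 CPM in 2-month WT, 7041 to 7417 CPM in 12-month WT, 10141 to 11216 CPM in 2-month KO and 9006 to 10192 CPM in 12-month KO. Their part in the Egfr result was not tested. For Ereg the most alike were Ifrd1 (r = 0.997), Tacc1 (0.995) and Sgk1 (0.994), and Sgk1, which encodes a serum- and glucocorticoid-induced kinase, went from 270.5 CPM in 2-month KO to 1364 CPM in 12-month KO. With 12 libraries in 4 groups, such r values mostly follow the 4 group means.

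Erbb3 and Erbb2 had their highest levels in 12-month WT. Erbb3 had 8.41, 11.04 and 7.95 CPM in 2-month WT, 71.4, 71.4 and 81.2 CPM in 12-month WT, 6.17, 5.94 and 6.48 CPM in 2-month KO, and 11.9, 12.7 and 12.0 CPM in 12-month KO. The 12-month WT libraries stood far above all others, and no 2 groups overlapped. With age it rose by 2.98 ± 0.10 in WT (BH-adjusted p = 4.59e-11) and by 0.92 ± 0.10 in KO (BH-adjusted p = 4.41e-06), and the interaction was -2.05 ± 0.15 (BH-adjusted p = 8.31e-08). Erbb3 was lower in KO than WT, with a log2 difference of -0.51 ± 0.10 at 2 months (BH-adjusted p = 0.0048) and of -2.57 ± 0.10 at 12 months (BH-adjusted p = 1.86e-10). It lies on chromosome 10 at 128569367 to 128589501 on the minus strand.

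Erbb2 moved the same way over a smaller range. It had 15.9, 20.7 and 16.8 CPM in 2-month WT, 31.3, 32.3 and 31.8 CPM in 12-month WT, 14.3, 15.1 and 13.4 CPM in 2-month KO, and 19.8, 19.9 and 20.7 CPM in 12-month KO. The highest 2-month WT library, replicate 2, was level with the highest of 12-month KO. Erbb2 rose with age by 0.83 ± 0.09 in WT (BH-adjusted p = 2.44e-06) and by 0.48 ± 0.09 in KO (BH-adjusted p = 0.000286), and was lower in KO at 12 months, with a log2 difference of -0.65 ± 0.09 (BH-adjusted p = 2.08e-05). Its call at 2 months (-0.30 ± 0.09, BH-adjusted p = 0.0327) and its interaction (-0.34 ± 0.12, BH-adjusted p = 0.0294) were weak. The 2-month difference did not pass without replicate 2 of 2-month WT (-0.19, BH-adjusted p = 0.114), replicate 1 of 2-month KO (-0.30, 0.0898) or replicate 3 of 2-month KO (-0.26, 0.128), and in edgeR (-0.21, 0.16) and DESeq2 (-0.23, 0.113). The interaction call was lost when replicate 1 or 3 of 2-month WT, 2 or 3 of 12-month WT, 1 or 2 of 2-month KO, or 1 or 2 of 12-month KO was left out, with values of -0.35 to -0.27 and adjusted p of 0.0501 to 0.0716. Erbb2 lies on chromosome 11 at 98412483 to 98437716 on the plus strand, and the protein-coding gene Mien1 overlaps it on the other strand.

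Among the ligands, Tgfa and Epgn were also highest in 12-month WT and next highest in 12-month KO. Tgfa, which encodes transforming growth factor alpha, had 3.39, 3.24 and 3.83 CPM in 2-month WT, 16.6, 16.9 and 18.1 CPM in 12-month WT, 2.35, 3.15 and 2.93 CPM in 2-month KO, and 5.66, 5.88 and 4.77 CPM in 12-month KO. The 12-month WT libraries were above all others, and 12-month KO lay between them and both 2-month groups. It rose with age by 2.16 ± 0.11 in WT (BH-adjusted p = 2.02e-09) and by 0.84 ± 0.11 in KO (BH-adjusted p = 1.8e-05), with an interaction of -1.31 ± 0.16 (BH-adjusted p = 1.04e-05). The genotype difference at 12 months was -1.58 ± 0.11 (BH-adjusted p = 3.27e-08), and none was called at 2 months (-0.27, BH-adjusted p = 0.124). Tgfa lies on chromosome 6 at 86195250 to 86275449 on the plus strand.

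Epgn, which encodes epigen, was near the limit of detection outside 12-month WT. It had 10 to 11 reads per library in 2-month WT, 8 to 13 reads in 2-month KO, 21 to 40 reads in 12-month KO and 59 to 153 reads in 12-month WT. Scaled to depth this was 0.234 ± 0.00985 CPM in 2-month WT, 2.17 ± 0.421 CPM in 12-month WT, 0.261 ± 0.0896 CPM in 2-month KO and 0.498 ± 0.113 CPM in 12-month KO. Only 12-month WT exceeded 1 CPM, in each of its 3 libraries. Since Epgn passed the filter only through that group, its differences from it are given as a description, with no test. The log2(CPM + 0.5) difference with age in WT was 1.85, which understates a 9.29-fold ratio of mean CPM, and that between genotypes at 12 months was -1.42. The smaller change in KO (0.39 ± 0.14, BH-adjusted p = 0.0267) lost its call without replicate 2 (0.31, BH-adjusted p = 0.106) or 3 (0.39, 0.0577) of 2-month KO, or replicate 1 (0.31, 0.106) or 2 (0.39, 0.0551) of 12-month KO, and with quantile scaling (0.32, 0.0678).

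Tgfa, Epgn, Erbb2 and Erbb3 were highest in the group with the highest luminal marker sum. Over the 12 libraries their log2 levels correlated with each other at r of 0.91 to 0.98, as a description of libraries in 4 groups. With age in WT all 10 luminal markers rose, with a median log2 fold change of 3.31, as did all 8 basal markers, with a median of 2.11. Of the basal markers, Cnn1 passed the filter only through 12-month WT, with 1.98 CPM there and 0.0757 to 0.575 CPM in the other groups. In KO 2 luminal markers rose and 2 fell, with a median of -0.02, while 5 basal markers rose and 1 fell, with a median of 1.04. No luminal marker was at 0 in any group. The genes most like Erbb3 were Sigirr (r = 0.998), Tmem79 (0.996) and Tjp3 (0.996), the last encoding a tight junction protein, and for Tgfa they were Prr15l (0.997), Clic6 (0.995) and Cadps2 (0.995). The part of luminal and basal cells in the changes of Tgfa, Epgn, Erbb2 and Erbb3 was not tested.

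Areg, next to Ereg on chromosome 5, did not follow it. It had 2.48, 2.83 and 3.26 CPM in 2-month WT, 6.94, 5.92 and 7.41 CPM in 12-month WT, 3.38, 3.07 and 4.35 CPM in 2-month KO, and 6.501, 5.79 and 5.58 CPM in 12-month KO. The 12-month libraries were above the 2-month ones in both genotypes, and the genotypes overlapped at each age. Areg rose with age by 1.11 ± 0.13 in WT (BH-adjusted p = 7.31e-06) and by 0.67 ± 0.13 in KO (BH-adjusted p = 0.000579). It was not called between genotypes at 2 months (0.28, BH-adjusted p = 0.179, but 0.47 and 0.0376 with quantile scaling) or 12 months (-0.17, BH-adjusted p = 0.274). Its interaction of -0.45 ± 0.19 missed the threshold (BH-adjusted p = 0.0544) and passed in edgeR (-0.60, 0.0233), in DESeq2 (-0.55, 0.0265), with recomputed factors (-0.50, 0.0361), with the replicate block (-0.45, 0.0358), and without replicate 3 of 2-month WT (-0.53, 0.0334), replicate 2 of 12-month WT (-0.53, 0.0346), replicate 2 of 2-month KO (-0.54, 0.0295) or replicate 1 of 12-month KO (-0.51, 0.047). Areg lies at 91139614 to 91148432 on the plus strand.

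Btc and Hbegf, the ligand genes with the most transcripts per length in both 2-month groups, were lower at 12 months in KO. Btc, which encodes betacellulin, had 37.3, 36.3 and 41.5 CPM in 2-month WT, 22.3, 22.0 and 19.2 CPM in 12-month WT, 28.8, 31.7 and 33.8 CPM in 2-month KO, and 11.5, 14.6 and 12.4 CPM in 12-month KO. No 2 of its groups overlapped. Btc fell with age by 0.84 in WT (SE 0.10, BH-adjusted p = 5.29e-06) and by 1.26 in KO (SE 0.10, BH-adjusted p = 9.6e-08), and was lower in KO at 12 months, with a log2 difference of -0.70 ± 0.10 (BH-adjusted p = 2.34e-05). At 2 months its difference of -0.28 was not called (BH-adjusted p = 0.0645), but was without replicate 2 of 12-month KO (-0.28, 0.0394), a library that enters only through the shared spread. Its interaction of -0.42 ± 0.14 (BH-adjusted p = 0.0182) lost the call without replicate 3 of 2-month KO (-0.37, 0.0514) and with quantile scaling (-0.31, 0.0641).

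Hbegf, which encodes heparin-binding EGF-like growth factor, was higher in KO at 2 months and lower at 12 months. It had 31.1, 29.6 and 30.6 CPM in 2-month WT, 28.0, 27.4 and 27.9 CPM in 12-month WT, 40.1, 46.3 and 40.9 CPM in 2-month KO, and 20.2, 22.0 and 17.4 CPM in 12-month KO. All 4 groups were apart, those of WT by a narrow gap. Hbegf fell with age in KO by 1.08 (SE 0.08, BH-adjusted p = 8.59e-08), while the WT change of -0.13 was not called (BH-adjusted p = 0.188). KO differed from WT by 0.47 ± 0.08 at 2 months (BH-adjusted p = 0.00168) and by -0.48 ± 0.08 at 12 months (BH-adjusted p = 0.000155), with an interaction of -0.95 ± 0.12 (BH-adjusted p = 1.16e-05).

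Egf itself was scarce, with 14 to 80 reads per library. It had 0.322 ± 0.0185 CPM in 2-month WT, 0.446 ± 0.071 CPM in 12-month WT, 0.528 ± 0.0829 CPM in 2-month KO and 0.714 ± 0.0888 CPM in 12-month KO. Neighbouring groups in this order differed little beyond their spread, and the age changes were not called in WT (0.20, BH-adjusted p = 0.151) or in KO (0.24, BH-adjusted p = 0.0778; 0.0275 with no filter on low values). Since Egf passed the filter only through its level in 12-month KO, its difference between genotypes at 12 months is a description, with no test. On the log2(CPM + 0.5) scale it was 0.36, higher in KO. At 2 months the difference of 0.32 was not called (BH-adjusted p = 0.0769), although it was with no filter (0.0277) and with quantile scaling (0.45, BH-adjusted p = 0.0309). GENCODE places 3 antisense genes across Egf, and with so few reads their share in it is unknown.

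**Figure D2:**
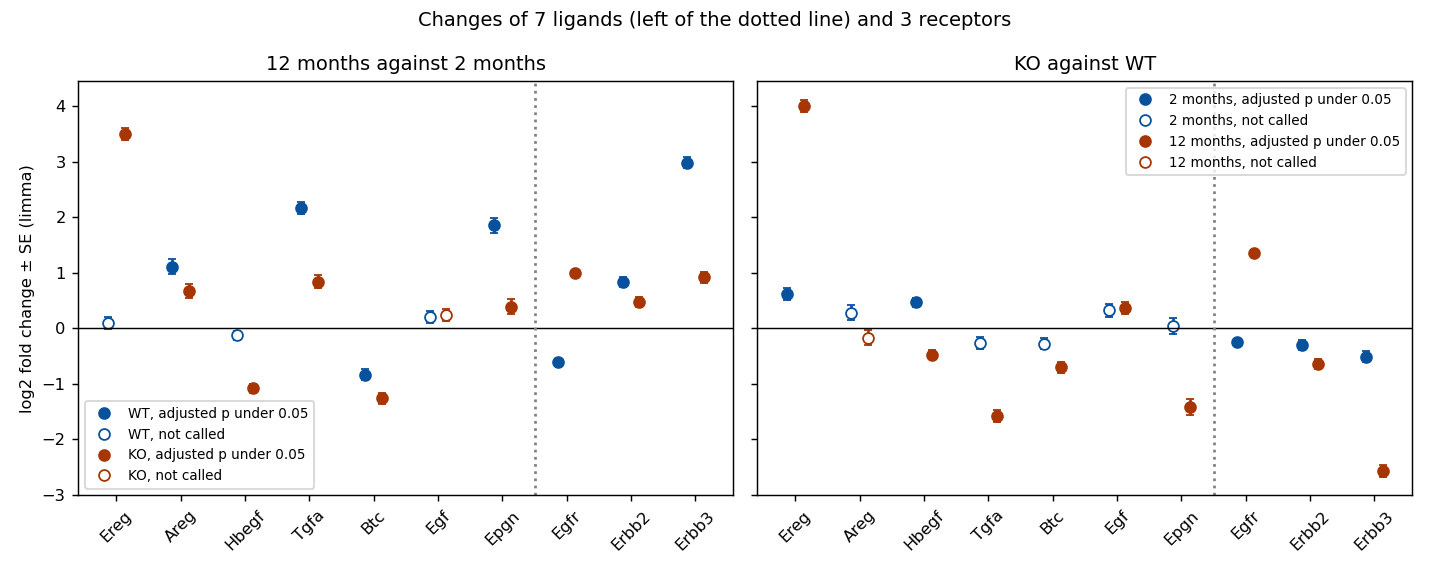
Log2 fold changes with SE from limma for 7 ligand genes and 3 receptor genes, by age in each genotype (left) and by genotype at each age (right), with filled points at an adjusted p under 0.05. The filled points of Epgn (age in WT, genotype at 12 months) and Egf (genotype at 12 months) are a description, with no test. Ereg in 12-month KO stands highest in both panels, and Egfr is the only receptor whose age change had opposite signs in WT (-0.61) and KO (0.99).

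Ligands and receptors were set against each other within each comparison. With age in WT, 3 ligands rose and 1 fell, and 2 receptors rose and 1 fell, which made 7 of 10 genes called against 58.0% of all genes tested. With age in KO, 4 ligands rose and 2 fell and all 3 receptors rose, or 9 of 10 against 67.0%. KO against WT gave 2 higher ligands and 3 lower receptors at 2 months (5 of 10 against 16.1%), and at 12 months 2 higher and 4 lower ligands with 1 higher and 2 lower receptors (9 of 10 against 70.2%). The interaction was called for 8 of 10 genes, against 57.7% of all genes. The counts for age in WT, genotype at 12 months and the interaction include Epgn, whose level in 12-month WT admitted it to the fit. The count for genotype at 12 months also includes Egf, admitted through its level in 12-month KO. Most genes were called in each comparison other than genotype at 2 months, so that a call there says little about these genes in particular. At 2 months 1.86% of all genes were higher and 14.2% lower in KO, and at 12 months 31.3% were higher and 38.9% lower. The libraries of the groups did not overlap for 9 of the 10 genes with age in WT (62.3% of all genes), 9 with age in KO (72.9%), 8 between genotypes at 2 months (32.1%) and 9 at 12 months (73.9%). The count of calls at 2 months fell to 3 of 10 with recomputed factors or in edgeR, which dropped Egfr and Erbb2. With quantile scaling 5 were called there, 4 higher and 1 lower in KO, against 2 higher and 3 lower here.

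Sizes beyond 1 log2 were less common in the table. With age in WT, Areg, Tgfa and Erbb3 rose by more than 1 log2, against 7.08% of all genes, beside Epgn, which was tested only because of its level in 12-month WT, and none of the 10 fell as far, against 5.29%. With age in KO, Ereg rose that far, against 7.96% of all genes, and Hbegf and Btc fell that far, against 5.79%. Between genotypes at 12 months, Ereg and Egfr were higher in KO by more than 1 log2 (6.67% of all genes) and Tgfa, Epgn and Erbb3 lower (9.93%). At 2 months none of the 10 differed that far, against 1.38% of all genes in either direction. The interaction exceeded 1 log2 upwards for Ereg and Egfr (9.63% of all genes) and downwards for Tgfa, Epgn and Erbb3 (8.21%). The median log2 fold change of the 7 ligands was 0.20 with age in WT and 0.39 in KO, and that of the 3 receptors 0.83 and 0.92, beside -0.08 and -0.02 for all genes tested. These ligand medians are the values of scarce genes, Egf in WT, which was not called, and Epgn in KO, whose call was lost under some alternatives. They therefore do not describe a rise of the ligands in general. Between genotypes the medians were 0.28 for ligands and -0.30 for receptors at 2 months, and -0.48 and -0.65 at 12 months, beside -0.09 and -0.07 for all genes. The ligand medians for age in WT and genotype at 12 months include Epgn, admitted through 12-month WT, and the latter also Egf, admitted through 12-month KO.

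Levels of different genes were compared as CPM per kilobase of annotated exon. The lengths are of all GENCODE exons of a gene, while the annotation used for counting is not given, so these levels and shares are approximate. Summed over the 7 ligands this was, in CPM per kilobase, 19.7 ± 1.05 and 21.9 ± 0.5 in WT at 2 and 12 months and 22.3 ± 1.14 and 47.9 ± 4.66 in KO (SD, n = 3). Btc made up 43.0% ± 0.828 of the ligand sum in 2-month WT, and Hbegf 39.4% ± 3.08 of it in 2-month KO. In 12-month WT the sum was spread over Hbegf (26.2% ± 0.451), Areg (25.3% ± 2.83), Btc (21.3% ± 1.49) and Tgfa (12.1% ± 0.759). In 12-month KO Ereg alone made up 72.5% ± 4.54, with Btc down to 5.99% ± 1.23. Btc thus led the ligand transcripts in 2-month WT, Hbegf in 2-month KO and Ereg in 12-month KO, while in 12-month WT the shares of Hbegf and Areg lay within their SD. The sum was of similar size in all groups but 12-month KO.

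Egfr was the main receptor transcript in every group. It made up 93.5% ± 0.944 of the receptor sum per kilobase in 2-month WT, 94.1% ± 0.194 of it in 2-month KO and 95.3% ± 0.128 of it in 12-month KO, but 71.5% ± 1.11 of it in 12-month WT. There Erbb3 made up 19.1% ± 1.14 and Erbb2 9.42% ± 0.352. The receptor sum was, in CPM per kilobase, 75.6 ± 2.28 and 64.9 ± 1.55 in WT at 2 and 12 months and 63.6 ± 2.22 and 124.9 ± 5.35 in KO. Both the ligand sum and the receptor sum were thus highest in 12-month KO, the first through Ereg and the second through Egfr.

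**Figure D3:**
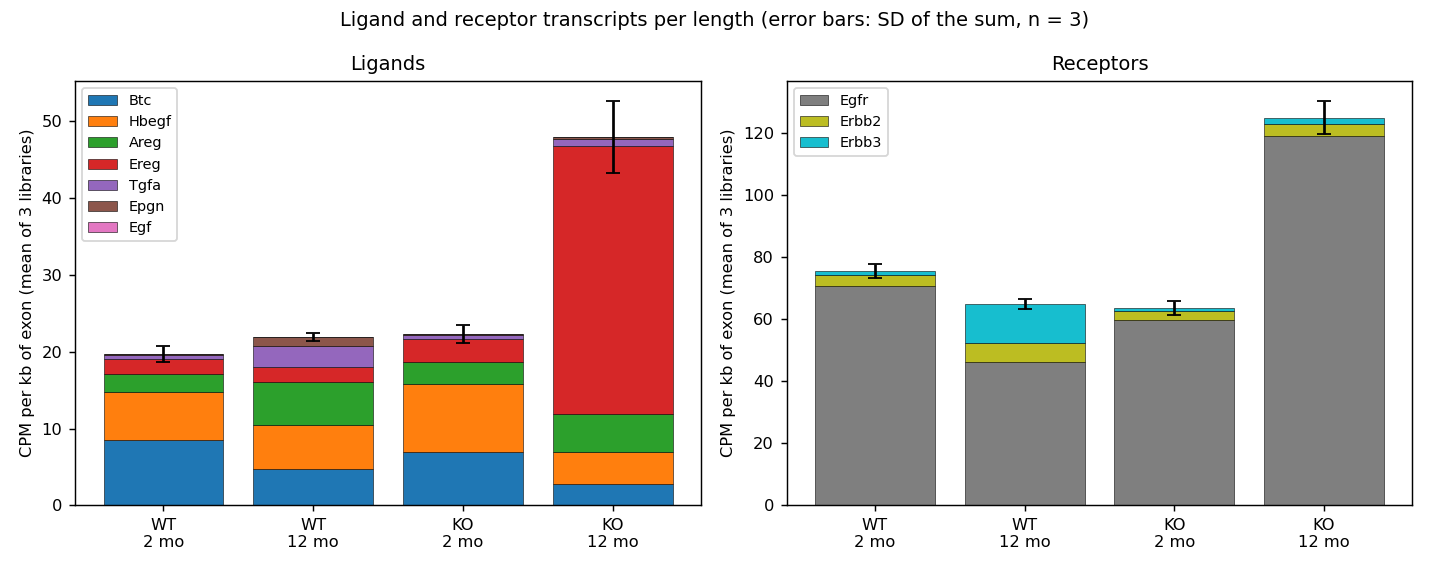
CPM per kilobase of exon of the 7 ligand genes (left) and 3 receptor genes (right), stacked as means of 3 libraries per group, with error bars for the SD of the sum. Ereg takes 72.5% of the ligand bar in 12-month KO, and Erbb3 takes 19.1% of the receptor bar in 12-month WT.

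Promoter sequences are shown for 5 members because 4 of them (Areg, Epgn, Tgfa and Erbb2) had their highest mean in 12-month WT, Egfr was lowest there, and Areg and Epgn are the neighbours of Ereg. For Areg the 12-month libraries overlapped between genotypes, and no difference between them was called. Each is the 250 bases before a RefSeq start site on GRCm38.p6, 5′ to 3′ on the strand of the gene. Areg is at chr5:91139349-91139598, Epgn at chr5:91027267-91027516, Tgfa at chr6:86194972-86195221, Erbb2 at chr11:98412234-98412483 and Egfr at chr11:16751953-16752202, all on the plus strand. Capitals mark matches, on either strand, to the letters TATAAA of the core promoter box of that name, to TGACGTCA of the cAMP response element, to TGANTCA of the AP-1 site or to GGGCGG of the GC box.
Areg: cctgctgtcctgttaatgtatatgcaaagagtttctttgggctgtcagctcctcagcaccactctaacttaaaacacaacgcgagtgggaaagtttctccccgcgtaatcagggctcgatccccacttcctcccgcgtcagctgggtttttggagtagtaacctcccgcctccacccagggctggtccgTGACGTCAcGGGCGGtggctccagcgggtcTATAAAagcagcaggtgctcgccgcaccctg
Epgn: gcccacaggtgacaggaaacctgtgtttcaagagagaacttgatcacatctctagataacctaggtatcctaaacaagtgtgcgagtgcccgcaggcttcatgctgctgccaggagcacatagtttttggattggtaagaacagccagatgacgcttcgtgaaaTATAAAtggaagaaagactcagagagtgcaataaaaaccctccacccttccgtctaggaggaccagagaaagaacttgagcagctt
Tgfa: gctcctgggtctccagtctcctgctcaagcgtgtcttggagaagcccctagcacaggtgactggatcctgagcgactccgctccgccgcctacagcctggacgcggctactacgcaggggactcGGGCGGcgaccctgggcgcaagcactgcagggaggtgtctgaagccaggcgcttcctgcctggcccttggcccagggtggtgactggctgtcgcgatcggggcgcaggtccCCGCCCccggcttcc
Erbb2: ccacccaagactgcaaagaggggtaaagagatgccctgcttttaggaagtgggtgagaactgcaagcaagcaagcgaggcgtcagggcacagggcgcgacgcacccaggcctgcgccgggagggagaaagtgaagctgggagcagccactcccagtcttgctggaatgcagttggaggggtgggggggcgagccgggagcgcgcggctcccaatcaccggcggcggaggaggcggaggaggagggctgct
Egfr: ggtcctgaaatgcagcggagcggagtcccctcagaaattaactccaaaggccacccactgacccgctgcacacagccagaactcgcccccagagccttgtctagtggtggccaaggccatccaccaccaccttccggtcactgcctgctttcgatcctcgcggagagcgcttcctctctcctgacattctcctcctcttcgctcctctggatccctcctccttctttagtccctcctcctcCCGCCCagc

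The Areg window held a cAMP response element 61 to 54 bases before the start, a GC box 52 to 47 bases before it and a TATA box 31 to 26 bases before it. Of 32851 start sites in the RefSeq table, 1.55% held TGACGTCA within the same 250 bases, 12.4% held TATAAA, 32.7% held GGGCGG and 6.75% held TGANTCA. The Tgfa window held 2 GC boxes and the Egfr window 1, Epgn a TATA box 86 to 81 bases before the start, and Erbb2 none of the 4 motifs. No motif of these was in all 4 windows of genes with their highest mean in 12-month WT. The matches describe letters and not bound factors. RefSeq windows were kept for 7 of the 10 members and not for Ereg, Hbegf and Erbb3. Start sites on chromosome 18, where Hbegf lies, were left out of the selection.

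Ereg, Areg, Epgn and Btc lie together on chromosome 5, where gaps of 39.4 kb separate Epgn from Ereg, 46.0 kb Ereg from Areg and 208.8 kb Areg from Btc. Epgn is at 91027516 to 91035212 on the plus strand and Btc at 91357260 to 91402994 on the minus strand. With age in KO the 4 changed by 0.39, 3.49, 0.67 and -1.26 in the order Epgn, Ereg, Areg, Btc, and in WT by 1.85, 0.09, 1.11 and -0.84. Ereg was thus the gene of the cluster that changed most in KO and the one not called in WT. Within 1 Mb of the cluster 21 other genes were tested. With age in KO 15 of them rose and 1 fell, with a median of 0.57, against 32.9% rises and 34.2% falls among all genes, and in WT 8 rose and 4 fell, with a median of 0.10, against 22.3% and 35.6%.

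The chemokine genes Cxcl5, Cxcl3, Cxcl1 and Cxcl2, whose products attract neutrophils, lie 315 to 171 kb before the start of Ereg. With age in KO, Cxcl5, Cxcl1 and Cxcl2 rose by 5.18, 5.26 and 4.56, and in WT by 2.76, 1.81 and 0.61. Cxcl3, which counts among the 15 neighbours above, had 0.17, 0.468 and 0.0657 CPM in 2-month WT, 12-month WT and 2-month KO and 2.65 CPM in 12-month KO, and was tested only because of that last level. Mthfd2l, a folate-metabolism gene between Cxcl2 and Epgn, changed by 0.07 in KO (BH-adjusted p = 0.479), and Pf4, a platelet chemokine gene among the Cxcl genes, fell by 2.44 (BH-adjusted p = 1.29e-07). Genes that rose and genes that did not were thus interleaved along this stretch. Neither the ligands nor their neighbours all moved one way.

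**Figure D4:**
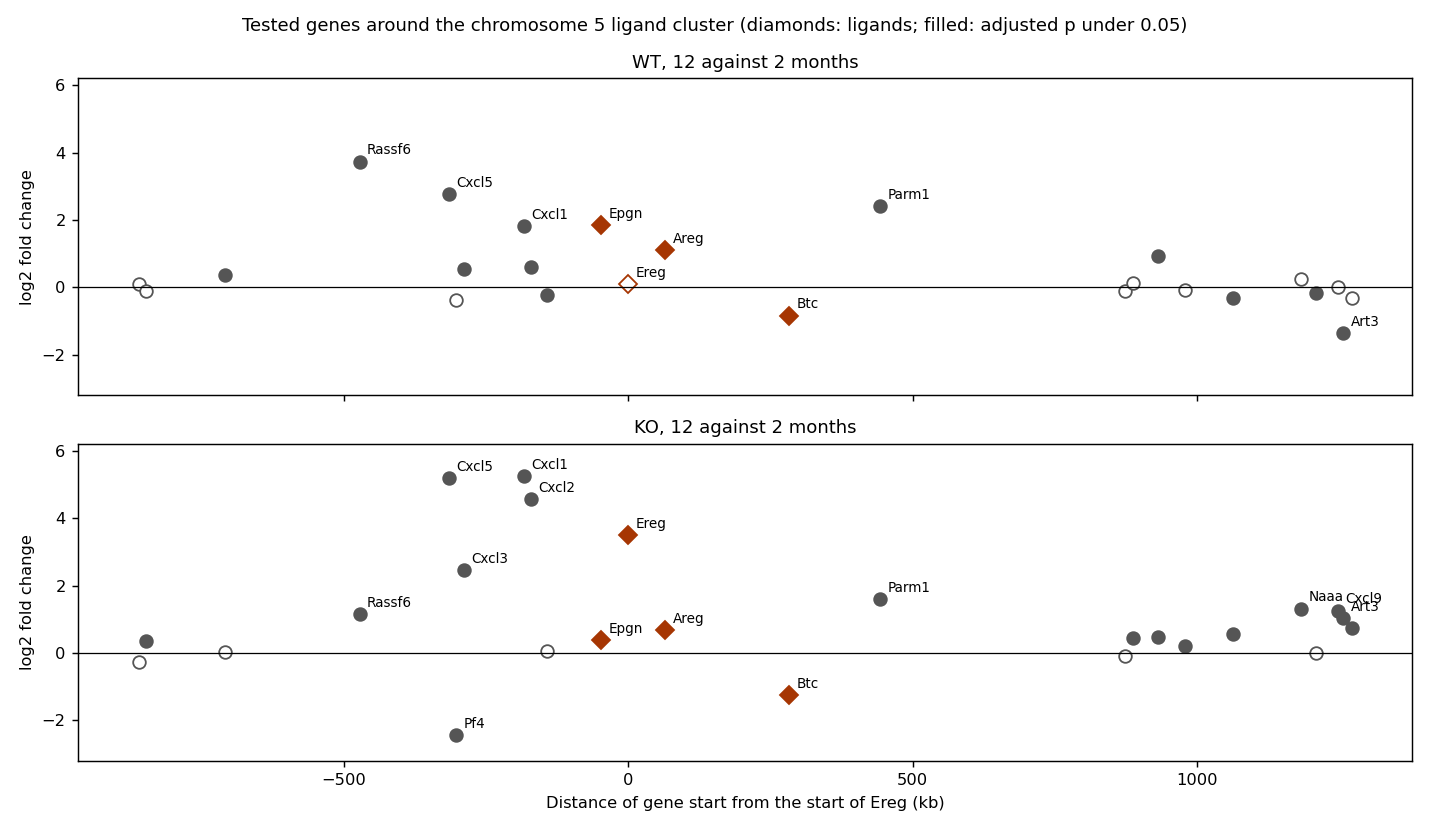
Log2 fold change with age in WT (top) and KO (bottom) of the tested genes within 1 Mb of the chromosome 5 ligand cluster, against the distance of each gene start from that of Ereg in kb. Ereg and the Cxcl genes to its left are high in KO, while Mthfd2l between them lies near 0 and Btc below it.

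The neuregulins, ligands of ErbB3 and ErbB4, were scarce. Erbb4 had 0 to 6 reads per library and was not tested, nor was Nrg3, with 4 to 22 reads. Nrg2 had 0.272 ± 0.0881 CPM in 2-month WT, 2.53 ± 0.462 CPM in 12-month WT, 0.074 ± 0.0257 CPM in 2-month KO and 0.159 ± 0.0275 CPM in 12-month KO, and its log2(CPM + 0.5) difference with age in WT was 1.97. Nrg2 passed the filter only through 12-month WT, so this difference is a description, with no test. Nrg1 rose with age in KO by 0.78 ± 0.13 (BH-adjusted p = 0.000163), to 2.1 ± 0.307 CPM. Nrg4 was at 0.897 to 1.13 CPM in all groups and was called in no comparison.

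Among 11 genes linked to ligand release, age brought 2 rises and 4 falls in WT, where 22.3% of all genes rose and 35.6% fell. In KO it brought 4 rises and 5 falls, where 32.9% rose and 34.2% fell. These counts are near the shares over all genes, but the WT rises include Rhbdl2, which passed the filter only through 12-month WT. Rhbdl2 had 1.99 CPM there and 0.243 to 0.307 CPM in the other groups. Adam17, the main protease for releasing Tgfa, Areg and Ereg, was 293.7 and 225 CPM in WT at 2 and 12 months, and 245 and 299.8 CPM in KO. It fell with age in WT by 0.38 (SE 0.05, BH-adjusted p = 1.86e-05), and the interaction was 0.67 ± 0.07 (BH-adjusted p = 2.88e-06). Adam9, another metalloprotease gene, rose in ageing KO from 460.5 ± 7.85 to 889.9 ± 7.24 CPM (0.95 ± 0.04, BH-adjusted p = 5.44e-10). Rhbdf2, which encodes the ADAM17 partner iRhom2, rose in WT from 15.1 to 36.3 CPM (1.26 ± 0.13, BH-adjusted p = 1.6e-06), and in KO it went from 14.7 to 25.0 CPM (0.74 ± 0.13, BH-adjusted p = 0.000185).

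Receptor adaptors and the Ras-ERK cascade gave 5 rises and 4 falls among 19 tested genes with age in WT, and 9 rises and 3 falls in KO, against 22.3% rises and 35.6% falls among all genes in WT and 32.9% and 34.2% in KO. Gab1, an adaptor downstream of EGFR, rose in both, from 9.50 to 18.4 CPM in WT (0.92 ± 0.11, BH-adjusted p = 7.44e-06) and in KO from 7.67 to 17.2 CPM (1.11 ± 0.11, BH-adjusted p = 1.15e-06). Its relative Gab2 fell in WT by 0.41 (BH-adjusted p = 2.14e-05) and rose in KO by 0.73 (BH-adjusted p = 7.74e-08), the same signs as Egfr. In KO the kinase genes Braf (57.4 to 100.6 CPM) and Map2k1 (162.6 to 240.3 CPM) rose by 0.80 (BH-adjusted p = 3.95e-08) and 0.56 (BH-adjusted p = 2.41e-07). Pik3cb, which encodes a PI3K catalytic subunit, was 44.7 CPM in 12-month WT and 10.9 to 15.1 CPM in the other groups.

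Among 18 receptor turnover and feedback genes, age brought 2 rises and 10 falls in WT, and 6 rises and 8 falls in KO, the latter near the 32.9% rises and 34.2% falls among all genes, while in WT 22.3% of all genes rose and 35.6% fell. Cblb, a ubiquitin ligase for activated receptors, fell in WT from 126 ± 11 to 65.0 ± 0.87 CPM (-0.95 ± 0.06, BH-adjusted p = 1.34e-08) and rose in KO from 107.6 ± 2.48 to 268.5 ± 8.97 CPM (1.31 ± 0.06, BH-adjusted p = 6.62e-10). Errfi1, which encodes the EGFR kinase inhibitor MIG6, rose in KO from 408 ± 22.6 to 804.3 ± 53.4 CPM (0.98 ± 0.06, BH-adjusted p = 2.5e-08). Lrig1, a membrane inhibitor of ErbB receptors, fell in WT from 627.1 to 412.3 CPM (-0.60 ± 0.07, BH-adjusted p = 8.58e-06). In KO it went from 620.2 to 380.9 CPM, so its lower level with age was not particular to WT. Spry4, a feedback inhibitor of ERK signalling, fell in WT by 0.99 (BH-adjusted p = 1.95e-08) and in KO by 0.98 (BH-adjusted p = 2.4e-08).

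Of 10 genes used elsewhere as a readout of ERK output, which include Spry2, Spry4, Dusp4 and Dusp6 of the feedback list, 3 rose and 6 fell with age in WT (median -0.38), and 2 rose and 6 fell in KO (median -0.26). Over all genes the medians were -0.08 in WT, with 22.3% rises and 35.6% falls, and -0.02 in KO, with 32.9% and 34.2%. Phlda1 rose in KO from 7.43 to 18.4 CPM (1.25 ± 0.08, BH-adjusted p = 2.81e-08), while the ERK-responsive factor Etv4 fell from 41.0 to 18.7 CPM (-1.11 ± 0.06, BH-adjusted p = 3.29e-09) and Dusp4 from 128.2 to 76.6 CPM (-0.74 ± 0.05, BH-adjusted p = 5.51e-08). Epha2 was 55.5 ± 1.93 CPM in 12-month WT and 10.1 to 10.5 CPM elsewhere, highest in the same group as Erbb3. Ccnd1, which encodes cyclin D1, was lower in 12-month KO than in 12-month WT, at 370.3 ± 29.7 against 631.5 ± 22.7 CPM (-0.77 ± 0.07, BH-adjusted p = 3.12e-07).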

How the data were processed

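Total RNA of 12 mammosphere libraries was measured, 3 in each of 4 groups read from the sample titles. Per the submitters' processing notes the tools were TopHat2 2.1.0, Bowtie2 2.2.4, SAMtools 0.1.18 and HTSeq 0.6.1p1 on mm10. Per the file headers, the deposited signal is CPM after TMM normalisation with edgeR. The sources used here give neither annotation nor strand setting. Whole reads were recovered by dividing by the CPM of 1 read, and in every library 100.0% of nonzero values fell at most 0.1 from an integer; a floor of 3 reads stood for 0.029 to 0.0859 CPM, and precision covers counting error only.

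With the 4 groups as terms, limma 3.58.1 (R 4.3.3, mean-variance trend) was run on log2(CPM + 0.5) for 13961 genes averaging 0.5 CPM or more, with Benjamini-Hochberg adjustment. On this scale the fold changes of low genes come out too small. The fit called 8091, 9358, 2245, 9801 and 8051 genes for WT age, KO age, 2-month genotype, 12-month genotype and the interaction; edgeR 4.0.16 on recovered reads called 7664, 9333, 1414, 9772 and 8120. Both were also run on simulated counts in which few genes changed, unlike these data, so that run does not show how they perform here. Factors recomputed over all 12 libraries shifted the comparison of genotypes at 2 months by 0.09 log2, age in WT by 0.06 and genotype at 12 months by 0.02. Exon lengths and overlapping genes are from GENCODE vM21 (GRCm38, which is mm10).

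The 10 members and all gene lists were chosen with earlier results of these data known. Every member is named; other genes are up to 4 per list and comparison with the smallest p among those called, the 3 most alike by Pearson r, and neighbours within 1 Mb. Of the listed genes Hras was not found under that name. Alternatives were scaling, pseudocount (0.1 and 1), filter (none and 2 CPM), test (edgeR, DESeq2 1.42.0), the groups in the fit, a replicate block and leaving out each library.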

Additional observations from a re-analysis of the deposited data

Results flagged for a closer look

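For 8 of the 10 genes the age effect in KO differed from that in WT by a test of the difference itself, the interaction in limma. On the log2 scale the difference, KO minus WT, was 3.40 for Ereg and 1.60 for Egfr. It was -2.05 for Erbb3, -1.46 for Epgn, which was tested only because of its level in 12-month WT, -1.31 for Tgfa and -0.95 for Hbegf. It was -0.42 for Btc and -0.34 for Erbb2, both of which lost the call under some alternatives. Among all genes tested 57.7% had such a difference.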

How the results depend on the processing

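Under 22 alternative settings, 1034 of 1080 values of the 10 genes kept their direction and their side of the threshold, 26 lost the call, 13 gained it and 7 changed sign. Of 1820 values of the other named genes, 1718 kept both and 100 lost the call. None of the sign changes concerned a called value. With quantile scaling the age change of Ereg in WT was -0.02, the genotype difference of Areg at 12 months 0.14 and the Shc1 interaction -0.11. The Egf interaction was -0.13 in edgeR, -0.08 in DESeq2, and -0.01 to 0.10 with 1 library left out, below 0 without replicate 2 of 12-month WT or of 2-month KO. The genotype difference of Epgn at 2 months was -0.04 to 0.13 with 1 library left out, below 0 without replicate 1 of 2-month KO.

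The comparison of genotypes at 2 months depended most on the processing. It called 2245 genes, 11.5% of them higher in KO, against 1458 with recomputed TMM factors (29.2% higher), 1322 with quantile scaling (39.6%), 1414 in edgeR (33.5%) and 1727 in DESeq2 (30.6%). Leaving out 1 library gave 1407 to 3033, the lowest without replicate 1 of 2-month KO and 1493 without its replicate 3. Of the 10 genes it called 3 with recomputed factors and 3 in edgeR, and 4 to 6 without 1 library. With age in WT 38.6% of calls were rises, against 50.9% in edgeR. The cause was not tested.

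Libraries of the same number did not deviate together in every pair of groups (r of -0.16 to 0.59), so the numbers were not taken as pairs. A replicate block gave 8453, 9681, 2590, 10079 and 8517 calls in the 5 comparisons, and among the 10 genes it changed the call of the Areg interaction alone. Egf, Epgn and the neuregulins rest on few reads, and depth limits what can be said of them.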
